A study of Mus musculus with 36 samples.

Results

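The data compared how mouse hearts answered when a cardiac Akt1 transgene was switched off at a late and at an early stage. For each probe set, a group of short probes to 1 transcript, the late response was the log2 signal after 6 weeks of induction and 2 weeks of repression minus that after 6 weeks of induction. The early response was the log2 signal after 2 weeks of induction and 2 days of repression minus that after 2 weeks of induction. The early response was subtracted from the late one within each chip, and this late minus early difference is the quantity given below unless another is named. A positive value means a larger rise or a smaller fall at the late stage. The comparison used 14 of the 18 hearts and 28 of the 36 arrays, since each heart was hybridised to both chips, 430A and 430B. Of 33084 probe sets tested, 155 differed between the stages, and they stand for 134 genes and 15 probe sets without a single gene symbol.

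All mice were labelled male and carried both Tet-myrAkt1 and a tTA transgene whose promoter is written ?MHC in the labels, a promoter of heart muscle cells. The early stage held 4 hearts induced for 2 weeks, from mice aged 14 weeks. It also held 4 induced for 2 weeks and then repressed for 2 days, from mice aged 14 weeks and 2 days. The late stage held 3 hearts induced for 6 weeks, from mice aged 18 weeks, and 3 that were then repressed for 2 weeks, from mice aged 20 weeks. Another 4 hearts, taken at 12 weeks of age before induction, entered the model through the shared spread and are given as a reference level. Mice without the transgenes are not part of the comparison. The stages differ in the length of induction, the length of repression and age, and these cannot be told apart. Hearts 3 and 4 before induction had signal for Xist, a female-specific transcript, although labelled male. Without them 120 and 8 probe sets of the chips 430A and 430B were called, against 139 and 16 with them. The transcripts Myh6, Tnnt2, Tnni3 and Actc1 of heart muscle had signals of at least 31.2 times the mean level of the chip in all 18 hearts.

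Akt1 is a kinase that acts downstream of the insulin and growth factor receptors and drives growth of heart muscle cells. The myristoylated form is anchored at the membrane and stays active. Akt inhibits the FoxO transcription factors, which turn on genes of protein breakdown, and it promotes protein synthesis. The tTA protein drives a tet-responsive transgene until doxycycline or a related drug blocks it, so that induction and repression can follow each other in the same animal. A growing heart also needs more small vessels, whose lining is made of endothelial cells.

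Of 3 Akt1 probe sets, 1 fell at both stages, to levels that overlapped. It read 1981, 2888, 3481 and 3164 at 2 weeks on and 745, 696, 706 and 725 at 2 days off. It read 2931, 2312 and 1851 at 6 weeks on and 789.5, 633 and 837 at 2 weeks off. The induced hearts did not overlap the repressed ones at either stage, while the repressed hearts of the stages overlapped each other. Its early response was -1.90 (adjusted p = 6.23e-07) and its late response -1.57 (adjusted p = 3.19e-05). The late minus early difference was 0.33 ± 0.25 (SE; limma, adjusted p = 0.612) and was not called. The other probe set of chip 430A had an early response of 0.13 (adjusted p = 0.607) and a late one of 0.49 (adjusted p = 0.0531), and that of chip 430B had 0.17 (adjusted p = 0.745) and -0.24 (adjusted p = 0.705). Neither was called to fall, and their late minus early differences of 0.37 and -0.42 were not called. Whether these probe sets detect the transgene's own transcript was not tested.

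On chip 430A, 139 of 15565 probe sets (0.893%) differed between the stages, 72 (0.463%) with a positive and 67 (0.430%) with a negative value. On chip 430B the number was 16 of 17519 (0.0913%), 6 positive (0.0342%) and 10 negative (0.0571%). These calls are at an adjusted p under 0.05 in the limma model, with Benjamini-Hochberg adjustment over all probe sets of a chip. Called values had sizes of 0.61 to 3.26 on chip 430A, those of chip 430B had sizes of 1.26 to 2.53, and the median over all probe sets was 0.03 and 0.04. Of the calls on chip 430A, 47 held in each of the 14 fits that left out 1 heart of the comparison. The count there was 64 without heart 3 at 2 weeks on and 245 without heart 3 at 6 weeks on. It was 88 without heart 2 at 2 weeks on, 80, 78 and 73 without heart 1, 2 or 4 at 2 days off, 84 without heart 1 at 6 weeks on, and 88 and 70 without heart 1 or 2 at 2 weeks off.

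**Figure D1:**
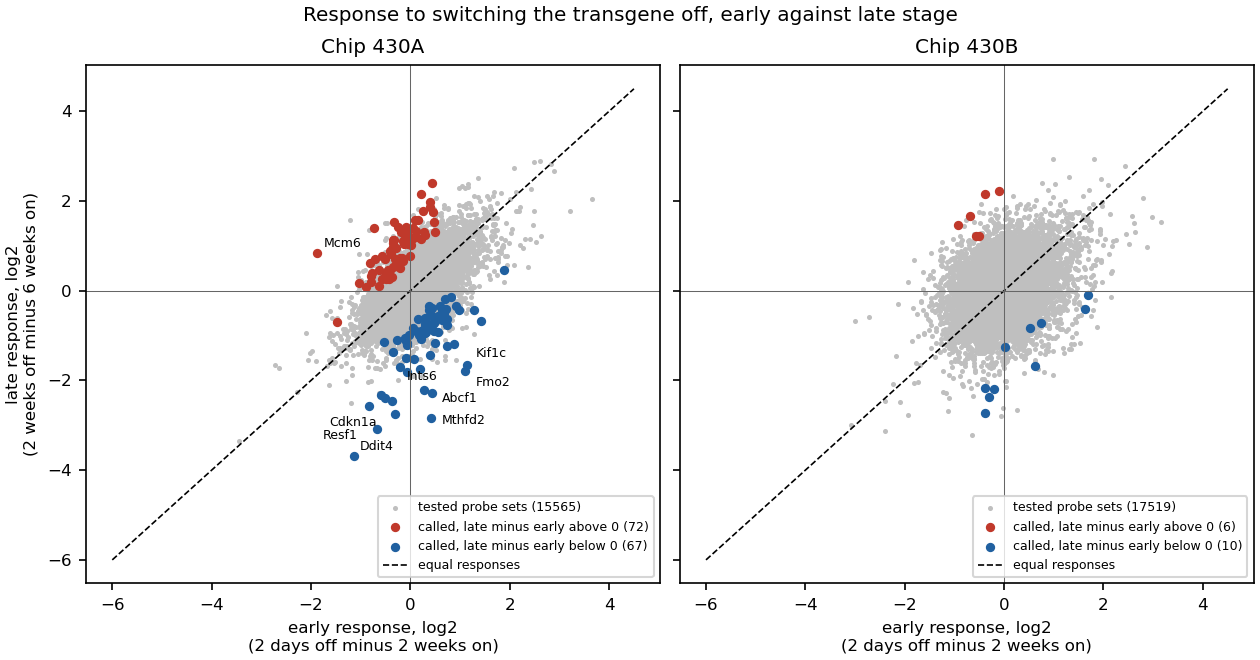
Each point is a probe set, with the early response on the horizontal and the late response on the vertical axis, both in log2 units. Red points are the 72 and 6 called probe sets with a positive late minus early difference, blue points the 67 and 10 with a negative one, and the dashed line marks equal responses. Ddit4 and Mthfd2 lie far below the line and Mcm6 far above it.

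RNA quality differed between hearts, most in heart 3 at 6 weeks on, whose Actb 3′ to 5′ signal ratio was 3.71 on chip 430A against 0.952 to 1.92 in the other 13 hearts of the comparison. The same late minus early difference for that ratio was -0.33 in log2 units (two-sided exact permutation within the stages, p = 0.799, adjusted p = 0.85 over 6 measures). For the 3′ probe set of 18S ribosomal RNA it was 0.33 (exact permutation p = 0.307). The 18S signal itself was lower in the late stage on chip 430A, 142 to 225 at 6 weeks on and 188 to 236 at 2 weeks off. In the early stage it was 302 to 496 at 2 weeks on and 266 to 464 at 2 days off. On chip 430B the stages did not overlap either. The part of this gap in the differences between the induced states was not tested. Without heart 3 at 6 weeks on, 114 of the 139 calls on chip 430A and all 16 on chip 430B were kept. The 16 genes named for their size were chosen because their calls held in each fit without 1 heart. Their calls without this heart were therefore fixed by the rule and support nothing. Without it Mthfd2 gave -3.55, Ddit4 -2.78, Abcc9 1.96 and F11r 1.53.

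Most of the called probe sets had responses of opposite sign at the 2 stages. Of the 78 with a positive difference, 59 had a negative early and a positive late response. Of the 77 with a negative difference, 54 had a positive early and a negative late response. These counts use the sign alone, and the rule that called the probe sets favours opposite signs, so nothing is read from them. A single response passed its own test at the late stage in 65 of the 78 and 63 of the 77, and at the early stage in 23 and 33. Both responses passed, with opposite signs, in only 7 of the 78 and 16 of the 77. Over all probe sets of chip 430A the late response was called in 19.1% and the early one in 18.0%, and on chip 430B in 3.61% and 2.35%. The rule that called the probe sets also favours large single responses, so nothing is read from the gap to these shares. As a description of the called probe sets only, the late response was the larger in size in 61 of the 78 and 60 of the 77.

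The same difference can be read as the gap between the repressed states minus the gap between the induced states, which says where a call comes from but is no separate evidence. For the positive group the median gap between 6 and 2 weeks on was -1.07, against 0.14 between 2 weeks off and 2 days off. For the negative group these medians were 1.01 and -0.24. The induced states differed more than the repressed states in all 78 positive and in 68 of the 77 negative probe sets. Over all probe sets the 2 induced states differed in 1025 on chip 430A (6.59%) and 317 on chip 430B (1.81%), while the repressed states differed in 1 (0.00642%) and 0 (0.00%), with 694 and 788 at an unadjusted p under 0.05 in limma. Of the 4 states, 6 weeks on was the furthest from the mean of the others in 61 of the 78 positive and 54 of the 77 negative probe sets.

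The 1 call between the repressed states was Nipsnap2, a mitochondrial matrix protein. It read 2366, 2255, 1828 and 2514 at 2 weeks on and 2983, 2762, 2106 and 3636 at 2 days off. The hearts induced for 6 weeks gave 1712, 1433 and 1813, and those at 2 weeks off 1000.5, 848 and 858, below every other heart of the comparison. The gap between the repressed states was -1.60 (adjusted p = 0.000192) and the late minus early difference -1.17 ± 0.24 (SE; limma, adjusted p = 0.0243). Sod1, the cytosolic superoxide dismutase, read 2894, 2448 and 2657 at 2 weeks off against 3695 to 6423 in the other 3 states, with a late minus early difference of -1.16 ± 0.22 (SE; adjusted p = 0.0165). Both genes were chosen after their values were seen.

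**Figure D2:**
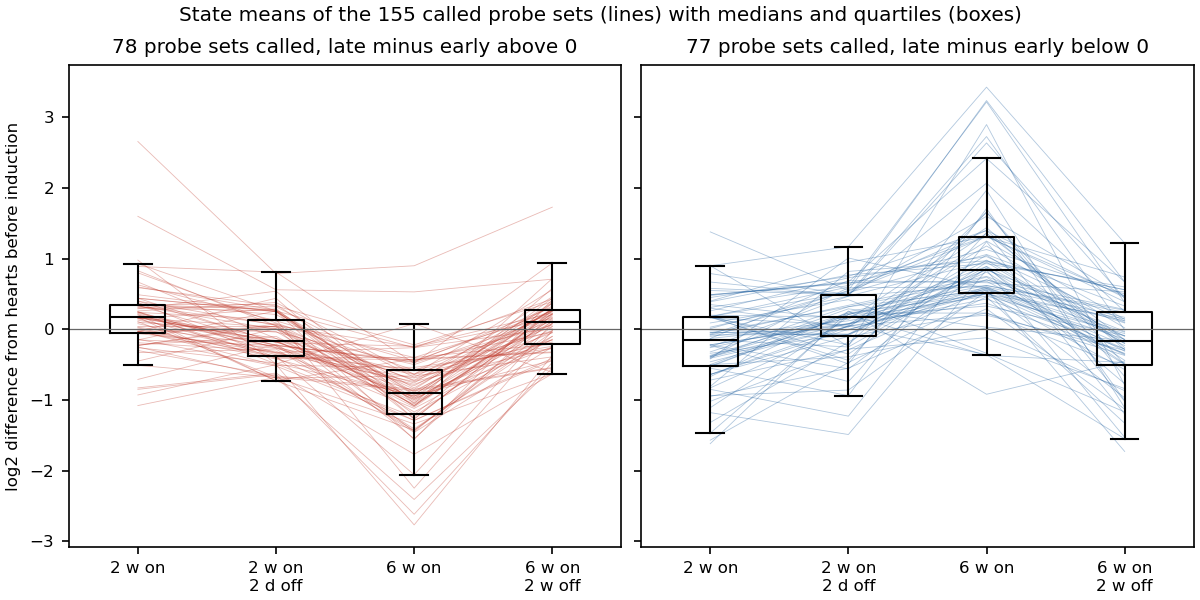
Each thin line joins the 4 state means of 1 called probe set, as the log2 difference from the hearts before induction. Boxes give the median and quartiles and whiskers reach the most distant value within the usual multiple of the quartile range. Lines of the positive group (left) dip at 6 weeks on, where their median is -0.90, and those of the negative group (right) peak there, with a median of 0.84.

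Without any test, all 3 hearts at 6 weeks on lay below the other 11 hearts of the comparison in 53 of the 78 positive probe sets. They lay above them in 51 of the 77 negative ones. Among all tested probe sets such a position below was found in 4.17% (chip 430A) and 1.87% (chip 430B), and above in 2.83% and 1.82%. The rule that called the probe sets favours this pattern, so nothing is read from the difference in shares.

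Among the genes of the amino acid response, 4 of 27 measured members were called lower and 0 higher, beside 0.321% of all genes in each direction. All lists here were chosen with earlier results of these data known, so the gap between such counts and that share is no evidence by itself. Mthfd2, an enzyme of mitochondrial folate metabolism and a target of the stress factor ATF4, had signals of 185, 160, 145 and 169 at 2 weeks on and 162, 315, 241 and 251 at 2 days off. After 6 weeks of induction the signals were 3876, 1120.4 and 1139, and those at 2 weeks off 155, 152 and 306. All 3 hearts at 6 weeks on stood above the others, and 1 of them stood far above the other two. The late minus early difference was -3.26 ± 0.45 (SE; limma, adjusted p = 0.00234), and its second probe set gave -1.94 (adjusted p = 0.00295). That probe set read 1831, 950.3 and 1078 at 6 weeks on and 384, 355 and 268 at 2 weeks off.

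Ddit4, which encodes the stress-induced inhibitor REDD1 of the growth kinase mTOR, fell at both stages but much further at the late one. Its signals were 891, 824, 992 and 1221 at 2 weeks on and 318, 640.4, 447 and 318 at 2 days off. In the late stage the induced hearts read 4856, 4636 and 2883, and those at 2 weeks off 259, 314 and 231. The induced hearts of the stages did not overlap, and neither did the repressed ones, although their values of 314 and 318 lay side by side. The early response was -1.14 (adjusted p = 0.00159), the late one -3.69 (adjusted p = 5.55e-08) and the difference -2.55 ± 0.32 (SE; limma, adjusted p = 0.00112).

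Cdkn1a, the cell cycle inhibitor p21, gave a difference of -2.45 ± 0.40 (SE; adjusted p = 0.00551) by a dim probe set and -1.74 ± 0.31 (SE; adjusted p = 0.0108) by its brighter one. The dim one passed the filter of 100 only through the hearts at 6 weeks on, with a mean of 44.7 in the others, so its call supports nothing by itself (adjusted p = 0.00506 with no filter). Of the 155 called probe sets, 3 passed the filter through 1 state in this way, the other being that of Gng13. The brighter probe set read 952, 948, 893 and 735 at 2 weeks on and 380, 564, 515 and 445 at 2 days off. The 3 late induced hearts had 4340.5, 3588 and 2320, and those at 2 weeks off 522, 562 and 465. Both stages showed a fall, to levels that overlapped, from a higher start at the late stage.

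In that list of serine, amino acid and ATF4 genes, 23 members had a negative value. Its median was -0.44, beside 0.03 over all 14650 genes, of which 0.321% were called higher and 0.321% lower. Atf5, a transcription factor of the same stress response, averaged 835 ± 103 after 2 weeks of induction against 1039.6 ± 132 once repressed (SD, n = 4), then 1806 ± 395 after 6 weeks of induction against 1045 ± 41.8 once repressed (SD, n = 3). Its difference was -1.04 ± 0.20 (SE; adjusted p = 0.0149). Slc3a2, a subunit of amino acid transporters, had 1175 to 2252 at 6 weeks on and 636 to 981 in the other 3 states (difference -1.14, adjusted p = 0.0485, called in 2 of the 14 fits that left out 1 heart). Eprs, the glutamyl-prolyl-tRNA synthetase, gave -0.88 (adjusted p = 0.0434) by 1 of its 4 probe sets and was called in 3 of the 14 fits. Members that were not called included Slc7a5 at -1.46 (adjusted p = 0.271) and Asns at -0.90 (adjusted p = 0.227). Atf4 itself stood at -0.44 (adjusted p = 0.45).

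**Figure D3:**
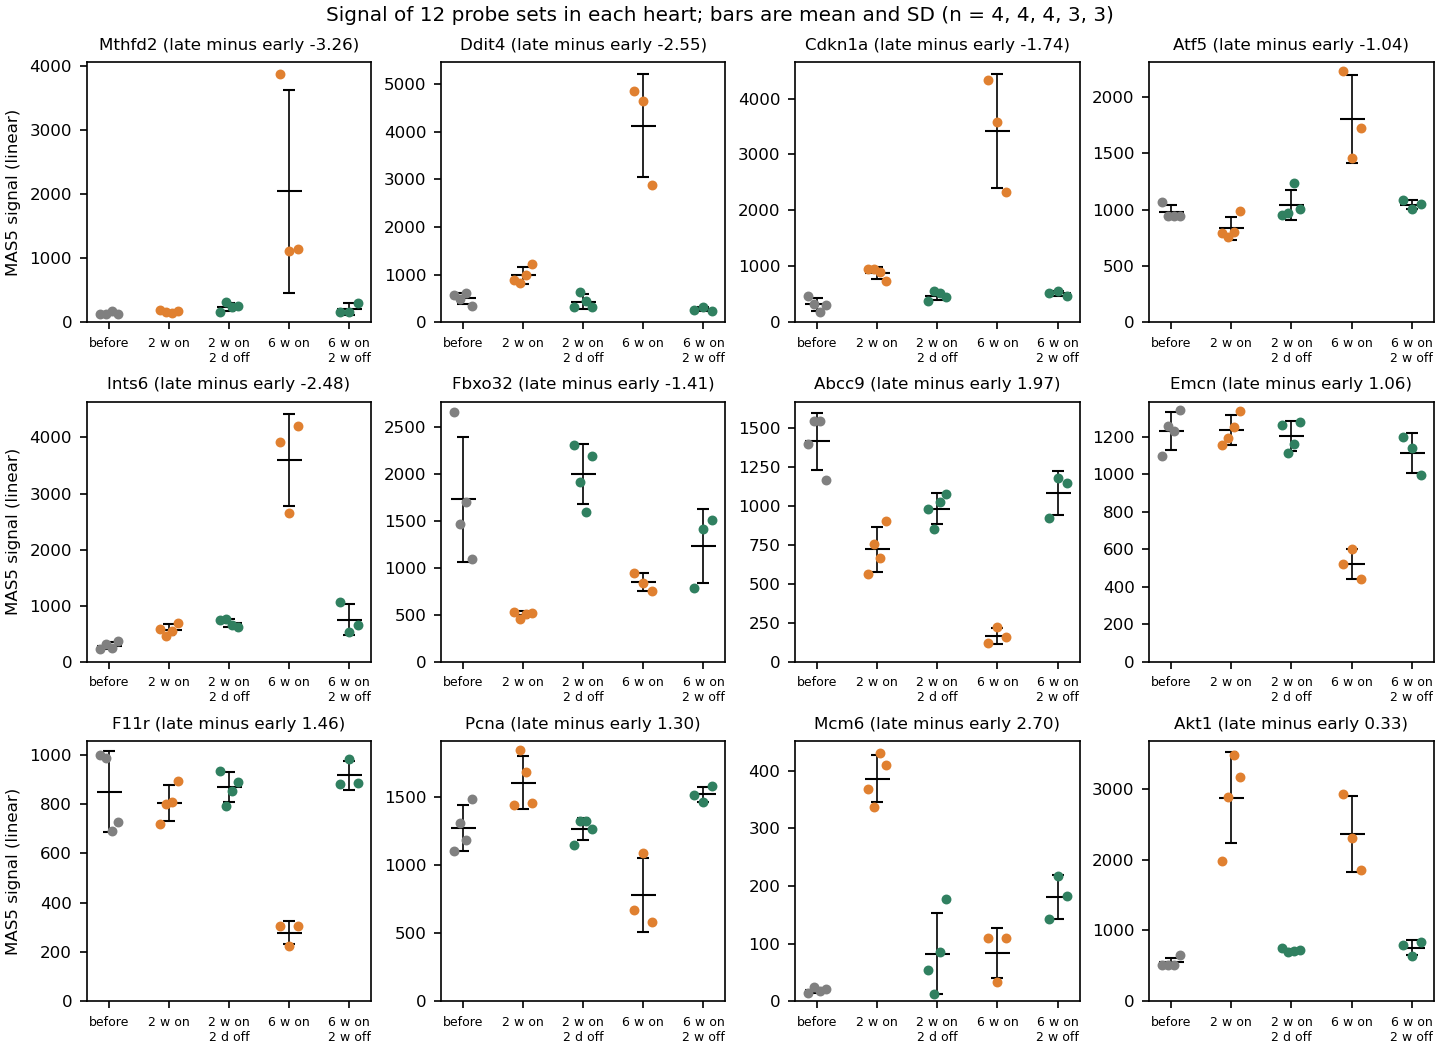
Each point is the signal of 1 heart on a linear axis, grey before induction, orange with the transgene on and green after it was switched off. Bars are the mean and SD of each state, and titles give the late minus early difference in log2 units. The hearts at 6 weeks on stand above the other 3 transgene states for Mthfd2, Ddit4, Cdkn1a, Atf5 and Ints6 and below them for Abcc9, Emcn, F11r and Pcna, while the Akt1 probe set that fell is high in both induced states.

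Several other transcripts that were high at 6 weeks on fell after late repression, and for several of them the probe sets of the gene disagreed. Ints6, a subunit of the Integrator complex that processes small nuclear RNAs, read 588, 465, 546 and 696 at 2 weeks on and 747, 768, 652 and 622 at 2 days off. With 6 weeks of induction the readings were 3928, 2656 and 4212, and those at 2 weeks off 1066, 528 and 659.6. The hearts at 6 weeks on lay apart from the rest, and the difference was -2.48 ± 0.30 (SE; limma, adjusted p = 0.000936). The other 3 Ints6 probe sets had differences of -0.24, -0.24 and 0.12 and were not called, so the value holds for 1 probe set only. Why the probe sets disagree was not tested.

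Abcf1, an ATP-binding protein of translation initiation, had a difference of -2.72 ± 0.39 (SE; adjusted p = 0.00271), while its other 4 probe sets lay between -0.31 and 0.57. The called probe set read 808, 629.7 and 1105 at 6 weeks on and 63, 139 and 222 at 2 weeks off, against 231 to 381 at 2 weeks on and 343 to 503 at 2 days off. Its hearts at 2 weeks off were the lowest of the 4 states. Resf1, a regulator of silenced retroelements, read 1553, 1456 and 748 at 6 weeks on and 46.5, 167 and 102 at 2 weeks off. It differed by -2.40 ± 0.36 (SE; adjusted p = 0.00271), and 2 of its 3 probe sets were called.

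Fmo2, a flavin monooxygenase, rose early and fell late. It read 141, 79.6, 145 and 201 at 2 weeks on and 349, 439, 295 and 334 at 2 days off, an early response of 1.10 (adjusted p = 0.0121). The hearts induced for 6 weeks gave 539, 924 and 733, and those at 2 weeks off 66.5, 328 and 196, a late response of -1.79 (adjusted p = 0.00126). The level at 6 weeks on overlapped that before induction, 519.6 ± 151 (SD, n = 4). The difference was -2.89 ± 0.44 (SE; limma, adjusted p = 0.00295), and the other 3 probe sets gave -1.15 to -1.21 without a call.

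The letters of 3 promoters are shown because a motif of interest lies in each, in a gene from either side of the comparison. They are the 250 bases before the gene start in RefSeq on GRCm38.p6, on the gene's minus strand, with the match in capitals. The FoxO motif GTAAACA lies in the promoter of Fmo2 at chr1:162898494-162898743, whose gene rose early and fell late. The E-box CACGTG lies in those of Abcf1 at chr17:35969751-35970000, which was called lower, and of Hopx, a homeodomain regulator called higher by 2 probe sets (0.81 and 0.94), at chr5:77095268-77095517.
Fmo2: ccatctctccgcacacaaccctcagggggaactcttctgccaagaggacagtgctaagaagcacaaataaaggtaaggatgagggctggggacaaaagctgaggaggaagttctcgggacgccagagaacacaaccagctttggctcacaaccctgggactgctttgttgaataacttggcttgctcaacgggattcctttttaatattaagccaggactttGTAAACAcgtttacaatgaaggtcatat
Abcf1: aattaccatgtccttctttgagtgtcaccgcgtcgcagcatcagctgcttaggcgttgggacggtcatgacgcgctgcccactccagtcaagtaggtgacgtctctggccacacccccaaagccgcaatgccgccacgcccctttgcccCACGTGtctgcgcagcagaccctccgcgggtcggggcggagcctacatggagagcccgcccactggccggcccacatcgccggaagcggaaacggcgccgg
Hopx: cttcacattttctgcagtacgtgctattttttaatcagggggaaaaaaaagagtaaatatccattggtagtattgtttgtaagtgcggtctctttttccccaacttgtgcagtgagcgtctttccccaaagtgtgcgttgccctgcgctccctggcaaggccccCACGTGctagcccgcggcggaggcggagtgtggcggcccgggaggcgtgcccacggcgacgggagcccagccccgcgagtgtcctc

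These motifs were searched on both strands in the promoters of 54 genes called higher and 60 called lower that the RefSeq table holds. GTAAACA was found in 1 and 1 of them (1.85% and 1.67%), Mrpl40 and Fmo2, against 3.54% of all 27025 genes. CACGTG was found in 5 and 6 (9.26% and 10%), against 6.86% of all genes. The ATF4 element TGATGCAA was found in 0 and 0, against 0.918% of all genes. These are descriptions of the letters in this window, with no test.

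Hspa4, a cytosolic chaperone of the HSP110 family, differed mainly through the early stage. It read 195, 161, 198 and 194 at 2 weeks on and 514, 582, 413 and 609 at 2 days off, a rise of 1.28 (adjusted p = 0.000362). After 6 weeks of induction the signals were 736, 746 and 374, and those at 2 weeks off 442, 404 and 450.5, which overlapped. The difference was -1.70 ± 0.30 (SE; adjusted p = 0.00944), and the other probe sets gave -0.04 and -0.32. The list of cytosolic heat shock proteins held no call by the brightest probe sets of its 22 measured genes, and its median was 0.07.

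Among the FoxO and atrophy targets, 1 of 23 measured genes was called lower and 0 higher, beside 0.321% of all genes in each direction. The median of the list was -0.29. Fbxo32, the muscle ubiquitin ligase atrogin-1 that FoxO turns on, read 526, 449.8, 511 and 519 at 2 weeks on and 2308, 1915, 1589 and 2193 at 2 days off. In the late stage the induced hearts read 946, 842 and 756, and those at 2 weeks off 785, 1409.9 and 1511. The early states did not overlap, while 1 heart at 2 weeks off lay within the range of 6 weeks on. The early response was 1.88 (adjusted p = 2.4e-05), the late one 0.47 (adjusted p = 0.206) and the difference -1.41 ± 0.33 (SE; limma, adjusted p = 0.0475). It was called in 3 of the 14 fits without 1 heart, and its other probe sets had stage differences of -0.76 and -0.70 that were not called. Those probe sets rose at both stages, by 1.90 early and 1.14 late (adjusted p = 1.87e-05 and 0.00355) and by 1.69 early and 0.99 late (adjusted p = 9.62e-05 and 0.0236).

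Of the 21 measured genes of Akt and insulin signalling, Pik3r1 was called lower and none higher, beside 0.321% of all genes in each direction. The median of the list was -0.05. Pik3r1 encodes the regulatory subunit of PI3-kinase upstream of Akt. Its signals were 185 to 228 at 2 weeks on, 243 to 352 at 2 days off, 387 to 739 at 6 weeks on and 61 to 299.6 at 2 weeks off, and its difference was -1.83 ± 0.41 (SE; adjusted p = 0.0384). The call held in 4 of the 14 fits without 1 heart, and its other probe sets gave -0.19, -0.81 and -1.92.

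The wall stress and fetal program had the lowest median of the 30 lists, -0.82 over 18 measured genes, of which 15 were negative. Its single call, beside 0.321% of all genes called lower, was Tgfb2, a growth factor of the TGF-beta family. Tgfb2 read 503 to 669.8 at 6 weeks on and 105 to 328 in the other 3 states. The difference was -1.49 ± 0.32 (SE; limma, adjusted p = 0.0294), called in 5 of the 14 fits without 1 heart, and the other 3 probe sets gave 0.00 to -0.68. Members of this list with larger values that did not pass were Mt2, a metallothionein, at -2.89 (adjusted p = 0.0755) and Myh7, the slow myosin heavy chain, at -2.13 (adjusted p = 0.158). The natriuretic peptides Nppa and Nppb stood at -1.33 (adjusted p = 0.635) and -1.05 (adjusted p = 0.454). The summed signal of the atrial markers, Nppa among them, ran from 6.88 to 96.7 trimmed means in the 14 hearts, and its part in these values was not tested.

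On the positive side, 1 of 22 measured endothelial markers was called higher and 0 lower, beside 0.321% of all genes in each direction. Emcn, the endothelial surface protein endomucin, read 1156, 1192, 1249.9 and 1339 at 2 weeks on and 1263, 1114, 1159 and 1278 at 2 days off. The 3 late induced hearts had 520, 603 and 443, and those at 2 weeks off 1201, 1142 and 996. Its early response was -0.04 (adjusted p = 0.86), its late response 1.03 (adjusted p = 4.58e-05) and the difference 1.06 ± 0.17 (SE; limma, adjusted p = 0.00431). The median of that list was 0.36 and 15 of its members were positive, among them Icam2 at 1.19 (adjusted p = 0.066) and Pecam1 at 1.18 (adjusted p = 0.0762), while Cdh5 stood at -0.07 and Vwf at -0.80.

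The summed signal of the 22 endothelial markers, in units of the chip's trimmed mean, was 45.5 to 54 at 2 weeks on and 43.1 to 52 at 2 days off. It was 36.1 to 45.2 at 6 weeks on and 41.8 to 49.8 at 2 weeks off, so the range at 6 weeks on lay just below that at 2 weeks on and overlapped those of both repressed states. In whole hearts, fewer cells of a type and less RNA per cell cannot be told apart, and the part of the sum in the values of single vessel genes was not tested. Of the 18 measured angiogenic growth factors and receptors, 0 were called by their brightest probe set, with a median of 0.27. Dimmer probe sets called 2 of them in opposite directions. Aplnr, the apelin receptor of endothelial cells, read 139.6, 244 and 489.8 at 6 weeks on against 679 to 1202 in the other 3 states (difference 1.85 ± 0.38 SE, adjusted p = 0.0266). Vegfd, a lymphatic and vascular growth factor, read 996, 646 and 1319 at 6 weeks on against 182 to 382 in the other 3 states (difference -1.75 ± 0.36 SE, adjusted p = 0.0266). Both calls held in 8 of the 14 fits without 1 heart. The brightest probe set of Aplnr gave 2.19 (adjusted p = 0.158), and the other probe sets of Vegfd gave -1.39 (adjusted p = 0.0585) and -1.47 (adjusted p = 0.0569).

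F11r and Gimap4 followed the same course. F11r, the junctional adhesion molecule A of endothelium and epithelium, read 718, 798, 808 and 893 at 2 weeks on and 935, 791, 852 and 889.6 at 2 days off. With 6 weeks of induction the readings were 305, 223 and 306, and those at 2 weeks off 881, 983 and 883. The hearts at 6 weeks on lay far below 11 others with little spread, and the difference was 1.46 ± 0.20 (SE; limma, adjusted p = 0.00234). Gimap4, a GTPase best known from lymphocytes, read 366, 524 and 295 at 6 weeks on against 732 to 1179.5 in the other 3 states, with a difference of 1.48 ± 0.21 (SE; adjusted p = 0.00271). Its second probe set gave 1.02 (adjusted p = 0.066).

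Abcc9, the SUR2 subunit of the ATP-sensitive potassium channel of muscle and pericytes, read 566, 758, 663 and 903 at 2 weeks on and 978, 850.3, 1025 and 1079.6 at 2 days off. The hearts induced for 6 weeks gave 119.8, 222 and 159.5, and those at 2 weeks off 924, 1178 and 1148. The late response of 2.40 (adjusted p = 2.58e-07) was the larger, the early response was 0.43 (adjusted p = 0.0629) and the difference 1.97 ± 0.24 (SE; limma, adjusted p = 0.000936). The other Abcc9 probe sets gave 1.10 (adjusted p = 0.0996) and 0.85 (adjusted p = 0.166). It was the 1 call among 13 measured smooth muscle and pericyte markers, beside 0.321% of all genes called higher. The median of these markers was 0.01, and their summed signal overlapped in all 4 states, from 31.7 to 42.3 trimmed means.

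A further 4 single genes were among the 8 largest positive differences. Mtss1, which bends membranes and binds actin, read 65.1, 75.3 and 63.7 at 6 weeks on against 204 to 536 in the other 3 states (difference 1.57 ± 0.25 SE, adjusted p = 0.00431). Marcks, a protein kinase C substrate that links actin to the membrane, read 273, 442 and 426 at 6 weeks on against 945 to 1675 elsewhere (difference 1.51 ± 0.24 SE, adjusted p = 0.00431). One of the 6 Mtss1 and 1 of the 7 Marcks probe sets was called, and the others ran from -0.47 to 1.13 and from 0.37 to 1.07. Mest, a paternally expressed imprinted gene, read 160.4, 255 and 273 at 6 weeks on against 546 to 862 elsewhere, and its difference was 1.50 ± 0.26 (SE; adjusted p = 0.0102). Cracr2b, a calcium-binding regulator of store-operated calcium entry, read 157, 169 and 81.8 against 231 to 472 elsewhere, with a difference of 1.45 ± 0.27 (SE; adjusted p = 0.0135). In each of these genes the hearts at 6 weeks on did not overlap any other transgene state.

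Of 30 measured proliferation genes, 2 were called higher and 1, Cdkn1a, lower, beside 0.321% of all genes in each direction. The median was 0.47 and 25 members lay above 0. Mcm6, a subunit of the helicase that opens DNA for replication, read 369, 337, 430.1 and 409 at 2 weeks on and 54, 12, 85.3 and 178 at 2 days off. After 6 weeks of induction the signals were 109, 34.1 and 109, and those at 2 weeks off 142, 218 and 182. It was high in 1 state, 2 weeks on, fell early by 1.87 on the log2 scale (adjusted p = 0.000478), and had a late response of 0.83 (adjusted p = 0.0938). Its difference was 2.70 ± 0.45 (SE; limma, adjusted p = 0.00551). The probe set passed the filter on dim signals (a mean of 100) only through the hearts at 2 weeks on, with a mean of 85.6 in the other 14, so it had to differ to be tested and its call supports nothing by itself. With no filter the adjusted p was 0.00829. Before induction it read 18.8 ± 4.74 (SD, n = 4), which is under the offset of 50.02 added before the log, so differences among its low states are compressed.

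Pcna, the sliding clamp of DNA replication, read 1443, 1844, 1685 and 1456 at 2 weeks on and 1148, 1321, 1323 and 1269 at 2 days off. In the late stage the induced hearts read 667, 1091 and 579.5, and those at 2 weeks off 1513, 1466 and 1581. The early response was -0.33 (adjusted p = 0.138), the late one 0.97 (adjusted p = 0.00104) and the difference 1.30 ± 0.23 (SE; limma, adjusted p = 0.0105). Markers of dividing cells with values of similar size were not called, such as Mki67 at 1.85 (adjusted p = 0.0631) and Cdk1 at 1.25 (adjusted p = 0.241).

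**Figure D4:**
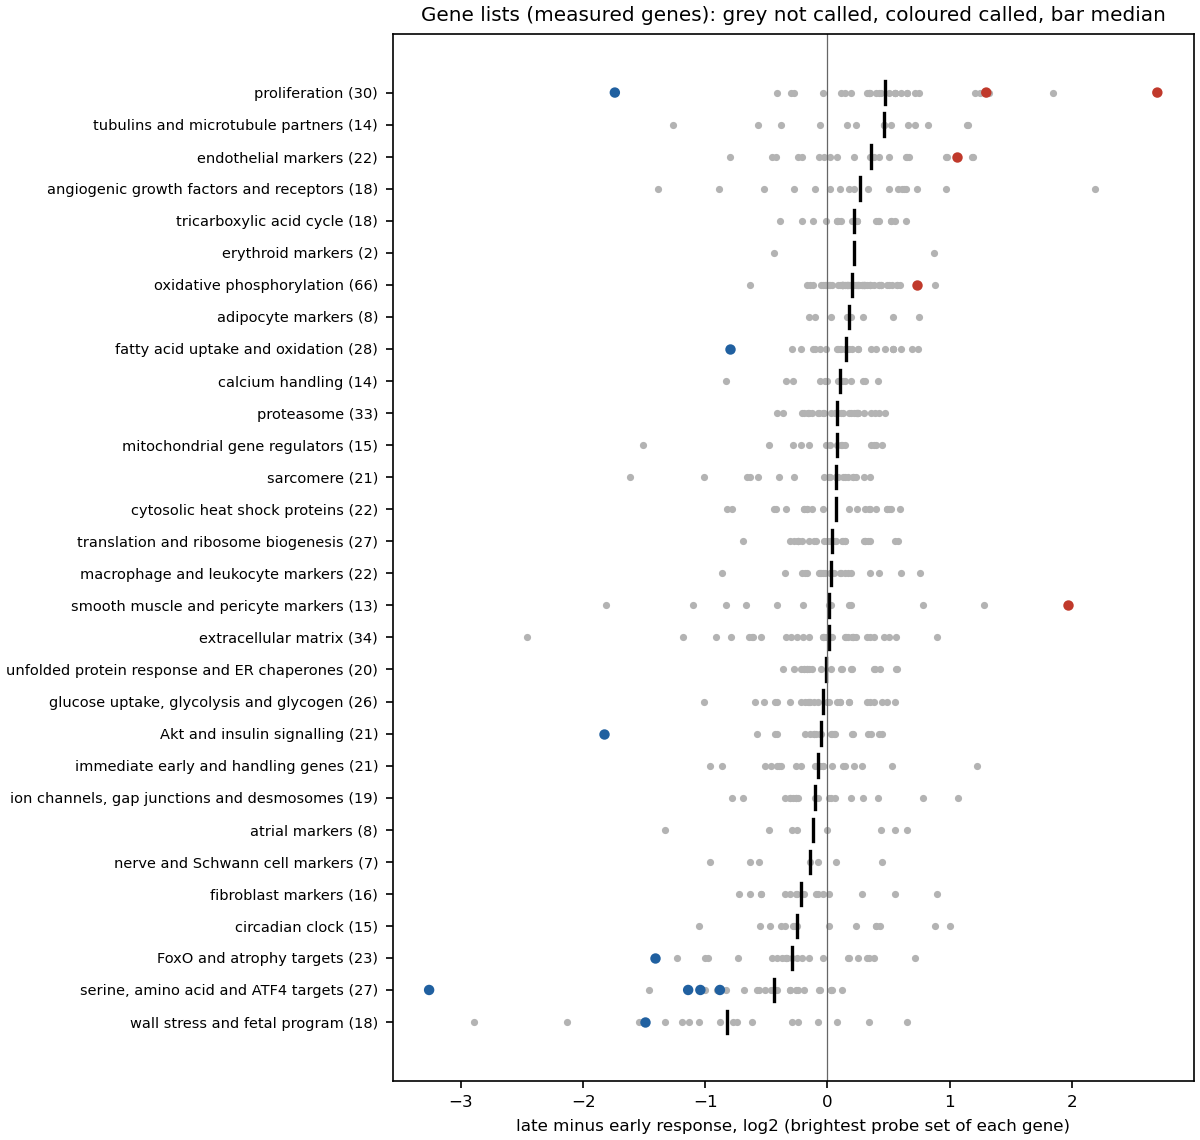
Rows are the 30 gene lists with their number of measured genes, ordered by median, and points are genes by their brightest probe set along the late minus early difference in log2 units. Black bars mark the medians, which run from -0.82 for wall stress to 0.47 for proliferation. Coloured points are called genes, of which the serine, amino acid and ATF4 list holds 4.

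Of 66 measured genes of oxidative phosphorylation, 1 was called higher and 0 lower, beside 0.321% of all genes in each direction. The median was 0.20 with 58 members above 0, and it was 0.18 under median scaling of the arrays and 0.13 after quantile normalization. Uqcrh, a subunit of respiratory complex III, averaged 8726 ± 798 after 2 weeks of induction against 5627 ± 467 once repressed (SD, n = 4), then 5535 ± 557 after 6 weeks of induction against 5939 ± 702 once repressed (SD, n = 3). The transcript fell early and had a late response of 0.10 (adjusted p = 0.626), a difference of 0.73 ± 0.16 (SE; adjusted p = 0.0372) that was called in 5 of the 14 fits without 1 heart. Its second probe set gave 0.30.

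Of 28 measured genes of fatty acid use, Acads was called lower and none higher by the brightest probe set, beside 0.321% of all genes in each direction. The median of the list was 0.15. Acads, the short-chain acyl-CoA dehydrogenase, rose from 2719 ± 419 to 3506 ± 246 early (SD, n = 4; adjusted p = 0.04) and fell from 4123 ± 317 to 3077 ± 525 late (SD, n = 3; adjusted p = 0.0392). The difference of -0.80 ± 0.19 (SE; adjusted p = 0.0464) was called in 3 of the 14 fits. Hadh, a later dehydrogenase of the pathway, went the other way by a dimmer probe set (difference 1.08, adjusted p = 0.0266), called in 5 of the 14 fits. That probe set read 2945, 2559.7 and 3759 at 6 weeks on against 4357 to 7963 in the other 3 states. The brightest Hadh probe set was not called. Over the 30 lists, 21 held no call by the brightest probe sets, among them extracellular matrix (34 genes, median 0.01), sarcomere (21 genes, 0.07), calcium handling (14 genes, 0.10), the unfolded protein response (20 genes, -0.01) and the proteasome (33 genes, 0.08). The marker lists of fibroblasts and of macrophages and leukocytes held no call either, with medians of -0.22 and 0.03. After quantile normalization the medians of Akt and insulin signalling (0.01), extracellular matrix (-0.00), sarcomere (-0.05), heat shock proteins (-0.02), macrophages and leukocytes (-0.00) and smooth muscle and pericytes (-0.02) had the other sign, so these lists have no settled direction.

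On chip 430B, where 16 probe sets were called, no named gene was called in all 14 fits without 1 heart. The 1 probe set that was has no symbol in the annotation used here. It read 314, 171, 209.6 and 186 at 2 weeks on, 188, 159, 147 and 154 at 2 days off, 43.4, 44 and 39.1 at 6 weeks on and 225, 243 and 221 at 2 weeks off. Its difference was 2.53 ± 0.30 (SE; limma, adjusted p = 0.00084), with the hearts at 6 weeks on below all others. The count of calls was 7 or fewer without heart 1, 2 or 3 at 2 weeks on (6, 2 and 7), without any 1 heart at 2 days off (1, 1, 4 and 4), without heart 1 at 6 weeks on (1) or without heart 2 at 2 weeks off (1). It was 52 without heart 3 at 6 weeks on and 8 without heart 3 or heart 4 before induction. Under median scaling of the arrays, 5 probe sets of this chip were positive and 14 negative.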

How the data were processed

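Whole hearts were profiled on a pair of Affymetrix chips, 430A and 430B. The deposited values are intensities, MAS5 signals on a linear scale per the submitters' processing notes, whose version was not stated there. The authors scaled the arrays of a chip to a common 2% trimmed mean, found from the values to be 500.2 on chip 430A and 122.5 on chip 430B. Array medians ran from 183 to 231.7 and from 60.88 to 78.91. No counts exist, so the number of hearts limits the precision.

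Each chip was analysed by itself. The 64 control probe sets of each were left out, and probe sets with a mean of at least 20% of the trimmed mean (100 and 24.5) were kept, 15565 of 22690 and 17519 of 22575. The log2 of signal plus 10% of the trimmed mean (50.02 and 12.25) entered a linear model of limma (version 3.58.1, R version 4.3.3) over all 18 hearts, with 1 mean per state and a variance trend. Log2 differences are on this scale and understate those of dim probe sets. P-values were adjusted by Benjamini-Hochberg within a chip and called under 0.05. They measure the spread between individual mice. The fit was tested on simulated data. The labels name no array batch.

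A single symbol was held by 20380 probe sets of chip 430A and 14661 of chip 430B, several symbols by 691 and 245, and no symbol by 1555 and 7605. Lists took each gene's brightest probe set. Genes were named if called in every fit without 1 heart, with 1 symbol and a signal of at least 50% of the trimmed mean in 1 state (the 8 largest each way on chip 430A), with up to 3 called genes of each list and Akt1. Other genes were chosen after their values were seen. The members and lists were chosen with earlier results of these data known. Alternatives were other offsets, filters, scalings, hearts and weights.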

Additional observations from a re-analysis of the deposited data

Results flagged for a closer look

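The responses of the 2 stages differed, by the test of the difference itself, in 139 probe sets of chip 430A and 16 of chip 430B. Among the named genes with a positive late minus early difference were Mcm6 (2.70), Abcc9 (1.97), Mtss1 (1.57), Marcks (1.51), Mest (1.50), Gimap4 (1.48), F11r (1.46), Cracr2b (1.45), Pcna (1.30), Emcn (1.06) and Uqcrh (0.73). Those with a negative difference were Mthfd2 (-3.26), Fmo2 (-2.89), Abcf1 (-2.72), Ddit4 (-2.55), Ints6 (-2.48), Cdkn1a (-2.45 and -1.74 by its 2 probe sets), Resf1 (-2.40), Pik3r1 (-1.83), Hspa4 (-1.70), Tgfb2 (-1.49), Fbxo32 (-1.41), Atf5 (-1.04), Eprs (-0.88) and Acads (-0.80). The probe sets of Mcm6 and of Cdkn1a at -2.45 passed the filter on dim signals only through the state where they were high.

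Single hearts stood apart from the other 3 of their state in 5 of 87 groups of 4, by a gap to the nearest heart above Dixon's critical share of the range, where chance gives about 5%. Mest read 841 in heart 3 at 2 days off against 546 to 568 (0.908 of the range). Cracr2b read 472 in heart 4 at 2 weeks on against 331 to 349.9 (0.845). Hspa4 read 161 in heart 2 at 2 weeks on against 194 to 198 (0.889). Before induction, Atf5 read 1068 in heart 1 against 940.3 to 948 (0.932), and Akt1 652 in heart 4 against 508 to 517 (0.926).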

How the results depend on the processing

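Of the 155 called probe sets, 139 were fitted under all 30 alternatives (26 planned) and 16 were left out by the filter at 50% of the trimmed mean; none changed sign where fitted. Of 868 values of named genes, 772 kept their direction and side of the threshold and 96 no longer passed. The 16 genes named for their size held 478 of these values, and all 478 were the same. For the 14 fits without 1 heart the rule that named these genes fixed this, so the pooled count overstates stability. All 96 losses were in the other named probe sets. Against 139 calls on chip 430A and 16 on chip 430B, scaling to a common median gave 68 and 19, array weights 456 and 55, and the Actb 3′ to 5′ ratio as a covariate 305 and 30. On chip 430B no filter gave 6, the 14 hearts alone 9 and the fit without the hearts with Xist signal 8. The cause was not tested. Without 1 heart the counts ran from 64 to 245 and from 1 to 52. Replicate numbers did not pair the hearts: 1 of 19 same-numbered pairs on each chip correlated over 0.1, and 2 and 3 of 14 hearts were closest to their own number. With the number as a replicate block, 127 and 2 probe sets were called. Signal near background limits dim probe sets such as Mcm6.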

Other observations

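Further genes with a called late minus early difference were chosen after their values were seen, so they stand for no gene group. Called in all 14 fits that left out 1 heart were the positive log2 differences of Tm4sf1, a tetraspan membrane protein (1.40), the basement membrane gene Lamb1 (1.42 and 1.43 by 2 probe sets) and the actin-binding scaffold Iqgap1 (1.34). The negative ones of Enah, an actin regulator (-1.24), glutamine synthetase Glul (-1.12) and the metalloproteinase inhibitor Timp2 (-1.19) were also called in all 14.

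Called in 11 to 13 of the 14 fits were Cav2 (1.30), Actg1 (0.87), Lasp1 (0.87), the prolyl hydroxylase Egln3 (-1.72) and the NF-kappaB inhibitor Nfkbia (-0.95). The other Cav2 probe set gave -0.00 (limma adjusted p = 0.998), so that value holds for 1 probe set only. Ets1 (1.39) was called in 8 of the 14 fits and Cebpb (-1.29) in 7. A second Cebpb probe set gave -0.65 (limma adjusted p = 0.373) and was not called. Calls that held in 4 or fewer were those of Sox7 (1.31), the Notch target Nrarp (1.66), Cxcr4 (1.11), Nid2 (1.21) and Pdlim7 (-0.96) in 4, the Notch ligand Dll4 (1.02) and Tsc22d3 (-1.42) in 3, Tpm3 (1.14) in 2 and Timp4 (-1.60) in 1. On chip 430B, Zbtb16, a zinc finger transcription factor, read 3128, 2858 and 2431 at 6 weeks on against 429 to 934 in the other 3 states. Its difference was -2.06 (limma adjusted p = 0.0386), called in 3 of the 14 fits. Before induction Zbtb16 read 969.8, 1247, 2620.4 and 1845, which overlapped 6 weeks on. The ribosomal genes Rps3a1 (0.68, called in 7), Rpl8 (0.71, in 11), Rps4x (0.71, in 6) and Rpl7 (0.85, in 2) have near-identical copies, so their values are uncertain.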
